A study of Mus musculus with 4 samples.

Results

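A set of 10 genes of mature thymic epithelial function were read out in thymospheres, the floating aggregates that form when dissociated thymus is cultured without attachment. The members, 10 of 21154 genes with a symbol on the array, are Aire, Fezf2, Psmb11, Prss16, Ctsl, Ly75, Il7, Tnfrsf11a, Relb and Ltbr, chosen by name for cortical and medullary function and its NF-kappaB control, and found through the RefSeq accession of their probes (12 of 55681). All 4 samples were C57Bl6/N mouse thymus digests grown for 7 days in a sphere medium with B27, hydrocortisone, insulin, EGF and bFGF. The 2 adult samples came from mice 5 to 6 weeks old and the 2 embryonic samples from embryos at embryonic day 14.5. Each RNA was hybridised to its own 1-colour Agilent array on 1 slide. Whole spheres were lysed without cell sorting, so fewer cells of a type and less RNA per cell cannot be told apart. Separate animals are not stated per array, so p-values measure the spread between these arrays, which may be technical.

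The thymus is where T cells mature, and its epithelium instructs them in 2 compartments. Cortical epithelial cells make peptides with proteases found in few other tissues, and the T cells are positively selected on these peptides. Medullary epithelial cells display proteins of other organs under the transcriptional regulators Aire and Fezf2, so that self-reactive T cells are removed. Receptors of the tumour necrosis factor family, above all RANK (Tnfrsf11a) and the lymphotoxin beta receptor (Ltbr), drive medullary maturation through the NF-kappaB subunit Relb.

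In these spheres the members were of 2 kinds. Prss16, Ctsl, Il7, Tnfrsf11a, Relb and Ltbr, 6 of the 10, were detected on all 4 arrays, that is, well above background by the scanner's criterion, and none of the 6 was called different between embryonic and adult spheres. The regulators Aire and Fezf2, the cortical proteasome subunit Psmb11 and the endocytic receptor Ly75 were detected on neither embryonic array. Psmb11 was bright on both adult arrays, Aire and Ly75 were detected on adult array 1 alone, and Fezf2 on no array. Over members, 9 were detected on adult array 1 and 6 on each of the other arrays, with the Psmb11 spot of adult array 2 left out as an outlier.

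The comparison asked which transcripts separate embryonic from adult spheres. Signal is given as log2 of the processed signal over the array's 75th percentile, fold changes are embryonic minus adult, and a gene is called at a limma adjusted p under 0.05 over 13667 genes tested. By that rule 53.5% of all tested genes were called, 36.1% higher and 17.5% lower in embryonic spheres, and the median log2 fold change of all tested genes was 0.79. Of all genes called lower, 71.7% were detected on neither embryonic array, so that they passed the filter through the adult arrays alone, which favours that direction. None of the 6 tested members were called by limma, and 1 had an unadjusted p under 0.05. Their median log2 fold change was 0.71, and 5 of the 6 had a mean above 0. In 4 of the 6 the groups did not overlap, against 84.1% of 13375 genes with a value on every array. Higher calls made up 67.4% of all calls here, 25.1% after centring each array on the tested genes and 85.3% after centring on all probes, and the median of all tested genes was 0.10 and 1.98 in those settings. With adult array 1 or adult array 2 left out limma called 0 genes, with 6435 and 5528 at an unadjusted p under 0.05, so no call named here held with either of them left out.

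The arrays differed in signal. Between 35.7% and 71.6% of spots were detected, the highest share on adult array 1 and the lowest on embryonic array 2. Of 1507 probes for sensory receptors (of odour, pheromone, taste and trace amines), which few tissues express, adult arrays 1 and 2 detected 51.4% and 23.2%, and embryonic arrays 1 and 2 detected 6.1% and 2.26%. Outlier spots numbered 2756 on adult array 2, against 95 to 185 on the others. They made up 17.0% of the spots brighter than the 75th percentile of adult array 2 and 0.54% of the dimmer ones.

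**Figure D1:**
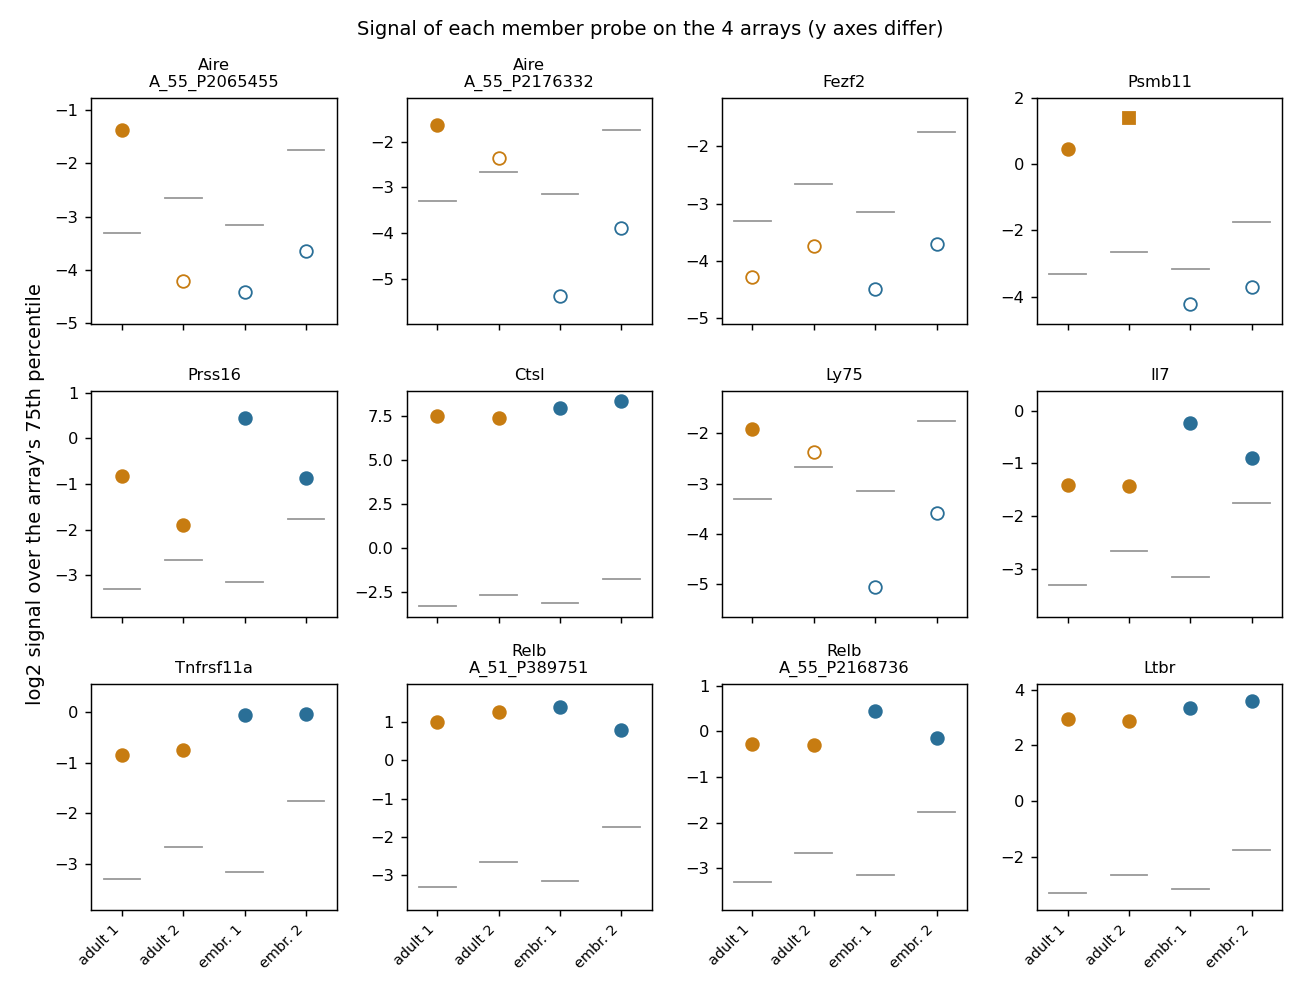
Normalised log2 signal (y axis) of the 12 member probes on the 4 arrays (x axis), adult in orange and embryonic in blue. Filled points were detected, open points were not, the square is the spot left out as an outlier, and grey lines mark the lowest signal of any detected probe on that array. Both Psmb11 adult points lie far above the embryonic ones, while the 6 tested members are filled on all 4 arrays.

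Sequence just upstream of the start site is shown for the member that differed most between the groups, Psmb11, and for one that was measured everywhere, Ltbr. RefSeq promoter windows (GRCm38.p6) were matched by symbol for 7 of the 10 members, and the 250 bases before each start are used here. The Psmb11 window is chr14:54625060-54625309 on the plus strand and the Ltbr window chr6:125313886-125314135 on the minus strand. Neither window overlaps an annotated gene, and capitals mark CpG dinucleotides.
Psmb11: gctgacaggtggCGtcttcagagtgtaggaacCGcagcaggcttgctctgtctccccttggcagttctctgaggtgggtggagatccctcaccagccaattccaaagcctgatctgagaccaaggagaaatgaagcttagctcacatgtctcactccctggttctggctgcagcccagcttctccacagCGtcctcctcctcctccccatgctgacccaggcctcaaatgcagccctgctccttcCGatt
Ltbr: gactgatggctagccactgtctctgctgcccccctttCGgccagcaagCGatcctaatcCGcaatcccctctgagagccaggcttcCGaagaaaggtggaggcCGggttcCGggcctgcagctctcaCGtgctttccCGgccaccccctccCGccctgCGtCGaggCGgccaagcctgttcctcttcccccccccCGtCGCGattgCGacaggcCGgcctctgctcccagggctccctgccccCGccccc

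The Psmb11 window held 4 CpG dinucleotides and the Ltbr window 18, against a median of 6 over 32851 windows. Over the 7 members with a window, the counts of members detected on all 4 arrays and of the others interleaved. A link between CpG content and detection was not tested. Ctsl, Ltbr and Tnfrsf11a, measured on all 4 arrays, had 7, 18 and 31, and the dim members Aire, Fezf2 and Ly75 had 11, 14 and 17. The windows of Ctsl, Fezf2 and Tnfrsf11a overlap their own annotated gene and that of Aire overlaps Dnmt3l. Prss16, Il7 and Relb had no window.

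Psmb11 encodes beta5t, the proteasome subunit of cortical epithelium that shapes the peptides for positive selection. Its probe had processed signals of 183 and 176 in adult and of 6.77 and 4.69 in embryonic spheres. Both adult signals lay above both embryonic ones, and the embryonic spots were not detected. On the normalised log2 scale these are 0.47 and 1.41 in adult and -4.22 and -3.71 in embryonic spheres. The spot of adult array 2 carried a flag for uneven pixels and was left out by the rule used for all spots, so Psmb11 was not tested. From adult array 1 alone its adult signal was at least 7.58-fold the embryonic one. With outlier spots kept the adult signal was at least 10.5-fold the embryonic one. These bounds set the embryonic arrays to the lowest signal of any detected probe where Psmb11 lay below it. That signal is no strict limit, since a probe that is not detected can read above it. On adult array 2 a probe of Aire read -2.36 undetected, against a lowest detected signal of -2.66. Such bounds, here and for the genes below, hold for this scaling of the processed signal and can be smaller under other processing. The pattern is not particular to Psmb11. Fabp9, an antigen of another organ, read 1.29 on adult array 1, was an outlier on adult array 2, and read -4.48 and -3.50 in embryonic spheres. The adult arrays also detected 51.4% and 23.2% of sensory receptor probes, against 6.1% and 2.26% on the embryonic arrays. The part of this in the Psmb11 signal was not tested.

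The other catalytic subunits and the activators of the proteasome gave 1 call in each direction. Of 9 tested, Psme3, a nuclear activator gene, rose (1.49, SE 0.48, limma adjusted p = 0.0468), and the immunoproteasome subunit gene Psmb8 fell (-1.55, SE 0.50, limma adjusted p = 0.0458). The Psme3 call was lost after centring on the tested genes (limma adjusted p = 0.294). Psmb8 read 1.23 and 0.99 in adult and 0.22 and -1.09 in embryonic spheres. The list median was 0.52. The housekeeping subunits Psmb5, Psmb6 and Psmb7, the catalytic subunits of the proteasome in most cells, did not pass the test (log2 fold changes 0.51, 0.75 and 1.02).

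Prss16 encodes the thymus-specific serine protease of cortical epithelium. Its normalised log2 signal was -0.83 and -1.90 in adult spheres and 0.44 and -0.86 in embryonic spheres. The groups overlapped, since adult array 1 lay above embryonic array 2. The log2 fold change of 1.16 (SE 0.59, 95% interval -0.31 to 2.62) was not called (limma adjusted p = 0.14). In each group array 2 was the lower by over 1 log2 unit, and with the replicate number as a block the same fold change passed (SE 0.33, limma adjusted p = 0.0405). The labels do not tie equal numbers to a shared litter or day. With 1 array left out the Prss16 value ranged from 0.51, without embryonic array 1, to 1.80, without embryonic array 2, and passed in the latter case alone (limma adjusted p = 0.00619). It was 0.47 after centring on the tested genes (limma adjusted p = 0.582) and 0.44 with normexp background correction (limma adjusted p = 0.249).

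Ctsl encodes cathepsin L, the lysosomal protease that cleaves the invariant chain in cortical epithelium and is present in many other cells. Its processed signal was 23780 and 10913 in adult and 30604 and 19337 in embryonic spheres. After scaling the adult values were 7.49 and 7.37 and the embryonic values 7.92 and 8.30. Both embryonic arrays lay above both adult arrays, but the log2 fold change of 0.68 (SE 0.32, 95% interval -0.12 to 1.48) was not called (limma adjusted p = 0.119). Its sign turned with quantile normalization (-0.29), with the deposited value table (-0.42) and with centring on the tested genes (-0.013).

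The other cathepsins and endosomal protease genes shared no direction. Of 15 tested, 2 rose and 1 fell, with a median of 0.25. Ctsw, a cathepsin of cytotoxic lymphocytes, fell (-2.66, SE 0.43, limma adjusted p = 0.0101), and was detected on 1 embryonic array. Ifi30, a thiol reductase of antigen processing, rose (1.54, SE 0.42, limma adjusted p = 0.0294), as did Ctsf (0.91, SE 0.30, limma adjusted p = 0.0483). Both rises were lost after centring on the tested genes (limma adjusted p = 0.172 and 0.598), and that of Ctsf held in 4 of 17 alternatives. Cathepsin S (Ctss), which acts on the invariant chain in medullary epithelium and myeloid cells, read 1.79 and 2.33 in adult and 3.26 and 2.55 in embryonic spheres (log2 fold change 0.85, SE 0.40, limma adjusted p = 0.121).

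Ly75 encodes DEC-205, an endocytic receptor of cortical epithelium and dendritic cells. Its processed signal was 35.1 and 12.7 in adult and 3.83 and 5.11 in embryonic spheres. It was detected on adult array 1 and on no other array, so it was not tested and no level can be given for embryonic spheres.

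Il7 encodes interleukin 7, the epithelial and stromal cytokine on which early T cell precursors depend. Its normalised log2 signal was -1.41 and -1.42 in adult spheres and -0.23 and -0.89 in embryonic spheres. The adult arrays lay close together and both embryonic arrays lay above them. The log2 fold change of 0.86 (SE 0.36, 95% interval -0.033 to 1.76) missed the threshold (limma adjusted p = 0.0872). It passed under quantile normalization (1.40, limma adjusted p = 0.0398), with the deposited value table (1.20, limma adjusted p = 0.00899), with detection asked on all 4 arrays (0.86, limma adjusted p = 0.0473) and without embryonic array 2 (1.19, limma adjusted p = 0.0355). It shrank to 0.17 after centring on the tested genes (limma adjusted p = 0.741) and to 0.53 with normexp background correction (limma adjusted p = 0.135).

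The receptor and signalling genes of interleukin 7 were measured in part. Il7r, its receptor chain on lymphoid cells, was detected on no array. Of 8 tested genes of this list 3 rose and none fell, with a median of 0.62. Cish, a STAT5-induced feedback inhibitor gene, rose by 1.92 (SE 0.33, limma adjusted p = 0.0114), Stat5b by 1.29 (SE 0.30, limma adjusted p = 0.0203) and the kinase gene Jak1 by 1.08 (SE 0.30, limma adjusted p = 0.0318). After centring on the tested genes the Cish call held (adjusted p = 0.0421) and those of Stat5b and Jak1 did not (limma adjusted p = 0.187 and 0.364).

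The list of other cortical epithelial genes, not all of them confined to those cells, moved both ways. Of 13 tested, 3 rose and 1 fell, with a median of -0.44. The transcription factor genes Pax1 (3.24, SE 0.43, limma adjusted p = 0.00831) and Foxn1 (2.07, SE 0.43, limma adjusted p = 0.0157) and the stem cell factor gene Kitl (1.62, SE 0.45, limma adjusted p = 0.0298) rose. Foxn1 and Kitl were detected on 1 adult array each, and both calls were lost after centring on the tested genes (limma adjusted p = 0.0599 and 0.201). The cytokine gene Tslp fell (-1.16, SE 0.32, limma adjusted p = 0.0296) and was detected on 1 embryonic array. That call was lost with normexp background correction (-0.32, limma adjusted p = 0.335), quantile normalization (-0.43, limma adjusted p = 0.451) and the deposited value table (-0.084, limma adjusted p = 0.827). Dll4, the Notch ligand that commits precursors to the T lineage, was detected on adult array 1 alone. The chemokine gene Ccl25, which attracts precursors, read 1.88 on adult array 1, with the adult array 2 spot left out as an outlier, and 0.69 and -0.53 in embryonic spheres. Its log2 fold change of -1.80 (SE 0.64) did not pass (limma adjusted p = 0.0702).

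Aire, the regulator that lets medullary cells transcribe genes of other organs, had 2 probes. One gave processed signals of 51.2 and 3.57 in adult and of 5.92 and 4.91 in embryonic spheres, the other 42.2 and 12.8 against 3.05 and 4.17. Both probes were detected on adult array 1 alone, so Aire was not tested. Fezf2, the second such regulator, had signals of 6.75 and 4.91 in adult and 5.59 and 4.71 in embryonic spheres and was detected on no array. The signal of Aire and Ly75 on adult array 1 stands beside 51.4% of sensory receptor probes detected on that array. Its part in these values was not tested.

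Genes that medullary cells express on behalf of other tissues were often dim. Of 19 such antigens on the array, 17 and 6 were detected in adult and 10 and 6 in embryonic spheres. The 9 that could be tested had a median of -0.86, 2 called higher and 2 lower. The myelin gene Mbp rose (2.24, SE 0.36, limma adjusted p = 0.0101) on the probe used, while 2 other probes of it were called in the opposite direction. The apolipoprotein gene Apoc3 also rose (1.33, SE 0.41, limma adjusted p = 0.0414), was detected on 1 adult array, and was not called after centring on the tested genes (limma adjusted p = 0.264). The thyroxine carrier gene Ttr (-2.67, SE 0.77, limma adjusted p = 0.0335) and the insulin gene Ins2 (-1.62, SE 0.42, limma adjusted p = 0.0328) fell. Ttr was detected on 1 embryonic array, and Ins2 rested on a single adult array.

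Of 14 tested other medullary epithelial genes 4 rose and 3 fell, and their median was 0.24. Ivl, a gene of terminal epithelial differentiation, fell (-2.79, SE 0.41, limma adjusted p = 0.00912), as did the basal keratin gene Krt14 (-1.87, SE 0.52, limma adjusted p = 0.0311) and the costimulatory ligand gene Cd80 (-1.47, SE 0.32, limma adjusted p = 0.0171). Cd80 read 0.44 and 0.83 in adult and -0.78 and -0.89 in embryonic spheres, with no overlap. The claudin gene Cldn3 rose (1.54, SE 0.39, limma adjusted p = 0.0238), and so did the chromatin remodeller gene Chd4 (1.35, SE 0.32, limma adjusted p = 0.0202) and the kinase gene Hipk2 (1.15, SE 0.31, limma adjusted p = 0.0283). These 3 calls were lost after centring on the tested genes.

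**Figure D2:**
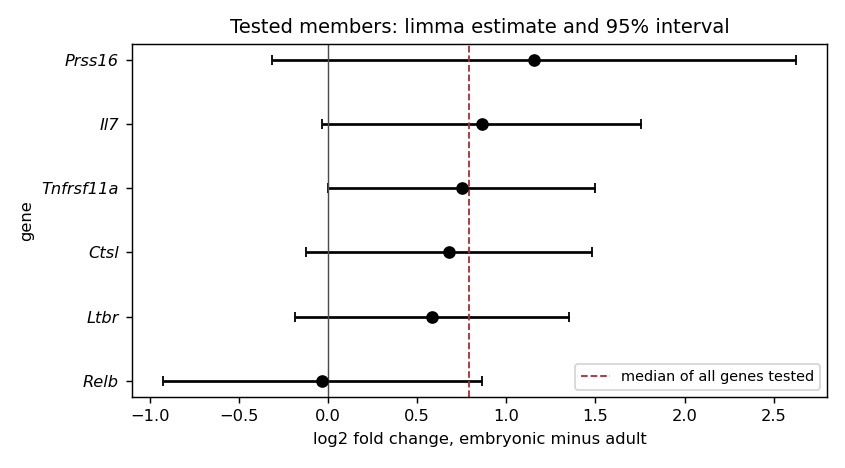
Log2 fold change (x axis, embryonic minus adult) of the 6 tested members with limma's 95% interval. The red dashed line is the median of all tested genes, 0.79, which lies inside all 6 intervals.

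Tnfrsf11a encodes RANK, the receptor whose engagement drives Aire-expressing cells to mature. Its normalised log2 signal was -0.84 and -0.74 in adult spheres and -0.043 and -0.037 in embryonic spheres. The arrays of each group lay close together and the groups did not overlap. The log2 fold change of 0.75 (SE 0.30, 95% interval 0.0026 to 1.50) had an unadjusted p of 0.0494 in limma and missed the threshold after adjustment (limma adjusted p = 0.0789). It passed when detection was asked on all 4 arrays (limma adjusted p = 0.0464), and shrank to 0.059 after centring on the tested genes.

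Ltbr encodes the lymphotoxin beta receptor, which stromal cells of many kinds carry. Its normalised log2 signal was 2.93 and 2.87 in adult spheres and 3.36 and 3.61 in embryonic spheres, with no overlap. The log2 fold change of 0.58 (SE 0.31, 95% interval -0.18 to 1.35) was not called (limma adjusted p = 0.15). Its sign turned with quantile normalization and with the deposited value table (-0.27 in each), and with centring on the tested genes (-0.11).

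Lymphoid cells mainly supply the ligands of these receptors in the thymus. The called ones, Lta and Tnfsf11, were detected in adult spheres alone, so their calls give no direction for the ligands. Of 6 tested genes of the ligand list, which includes a decoy receptor, 3 fell and 1 rose, with a median of -1.02. Lta, for lymphotoxin alpha, read 1.79 and 1.43 in adult and -4.72 and -3.54 in embryonic spheres. It was detected on neither embryonic array, and the adult signal was at least 16.7-fold the embryonic one (limma adjusted p = 0.00734). The Lta log2 fold change of -5.74 shrank to -2.44 with normexp background correction and to -3.83 with the deposited value table. Tnfsf11, which encodes the RANK ligand, read -2.20 and -0.80 in adult and -5.42 and -3.25 in embryonic spheres, where it was not detected. The adult signal of Tnfsf11 was at least 1.94-fold the embryonic one (limma adjusted p = 0.0358). Its call was lost with normexp background correction (-0.48, limma adjusted p = 0.269) and with quantile normalization (-1.72, limma adjusted p = 0.24). The deposited value table (-0.46, limma adjusted p = 0.248) and no filter on dim probes (limma adjusted p = 0.0854) lost it too, while centring on the tested genes kept it (limma adjusted p = 0.0403). Lta and Tnfsf11 passed the filter through the adult arrays alone, which favours such a direction. Tnfrsf11b, for the RANK ligand decoy osteoprotegerin, fell as well (-1.22, SE 0.40, limma adjusted p = 0.0484), a call that held in 4 of 16 alternatives. Tnfsf12, for the cytokine TWEAK, rose (1.13, SE 0.33, limma adjusted p = 0.0349), a call lost after centring on the tested genes (limma adjusted p = 0.364). Ltb, for lymphotoxin beta, read -1.77 and -1.81 in adult and -1.29 and -3.83 in embryonic spheres, which overlap, and was not called (-0.77, SE 0.82, limma adjusted p = 0.441).

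Relb encodes the NF-kappaB subunit of the alternative pathway. On its brighter probe the normalised log2 signal was 0.99 and 1.26 in adult spheres and 1.39 and 0.79 in embryonic spheres. The adult values lay between the embryonic ones, and the log2 fold change was -0.031 (SE 0.36, 95% interval -0.92 to 0.86, limma adjusted p = 0.945). The interval allows a change of almost 1 log2 unit in either direction. The other probe, for another transcript, read -0.27 and -0.30 in adult and 0.44 and -0.14 in embryonic spheres, a log2 fold change of 0.44 (SE 0.34, limma adjusted p = 0.306). The sign of Relb also turned on centring on all probes (1.16, limma adjusted p = 0.0481), with the mean of its probes (0.20), without adult array 2 (0.10) and without embryonic array 2 (0.27).

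Of 15 tested kinases, subunits and inhibitors of NF-kappaB, 3 rose and 1 fell, with a median of 0.72. The subunit gene Rela rose by 1.38 (SE 0.31, limma adjusted p = 0.0188), the IKK-alpha gene Chuk by 1.54 (SE 0.33, limma adjusted p = 0.0167) and the feedback inhibitor gene Tnfaip3 by 1.48 (SE 0.36, limma adjusted p = 0.0217). All 3 calls were lost after centring on the tested genes (limma adjusted p = 0.138, 0.108 and 0.139). Rel, the subunit gene most used in lymphoid cells, read 0.24 and -0.47 in adult and -5.40 and -3.92 in embryonic spheres. It was detected on neither embryonic array, and the adult signal was at least 5.06-fold the embryonic one (limma adjusted p = 0.00771), so that Rel too passed the filter through the adult arrays alone. The Rel log2 fold change of -4.55 shrank to -1.20 with normexp background correction and to -1.86 with the deposited value table. Nfkb2, whose product partners Relb, read 0.75 and 0.42 in adult and 1.46 and 1.56 in embryonic spheres (log2 fold change 0.93, SE 0.31, limma adjusted p = 0.0524). Map3k14, for the kinase NIK of the same branch, had a log2 fold change of 0.72 (SE 0.37, limma adjusted p = 0.14), and another probe of it gave -1.03.

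Among 13 tested other receptors and adaptors of the pathway 2 rose and 1 fell, with a median of 0.41. Ripk1 (1.16, SE 0.30, limma adjusted p = 0.0268) and the NIK-degrading adaptor gene Traf3 (1.08, SE 0.35, limma adjusted p = 0.0465) rose, and Tnfrsf1b, a TNF receptor gene, fell (-1.66, SE 0.43, limma adjusted p = 0.0263). The calls of Ripk1 and Traf3 were lost after centring on the tested genes (limma adjusted p = 0.286 and 0.434). Tnfrsf1b was detected on 1 embryonic array. Cd40, Ctss, Psmb9 and Psmb10 each stand in 2 of the lists given here, and Foxn1 and Krt14 also count among the thymic epithelial markers, so that their calls are counted in both. Among the genes that fell, the calls of Cd80, Krt14, Ins2, Tnfrsf11b, Tnfrsf1b and Psmb8 were lost after centring on all probes, where Tslp turned to 0.030.

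**Figure D3:**
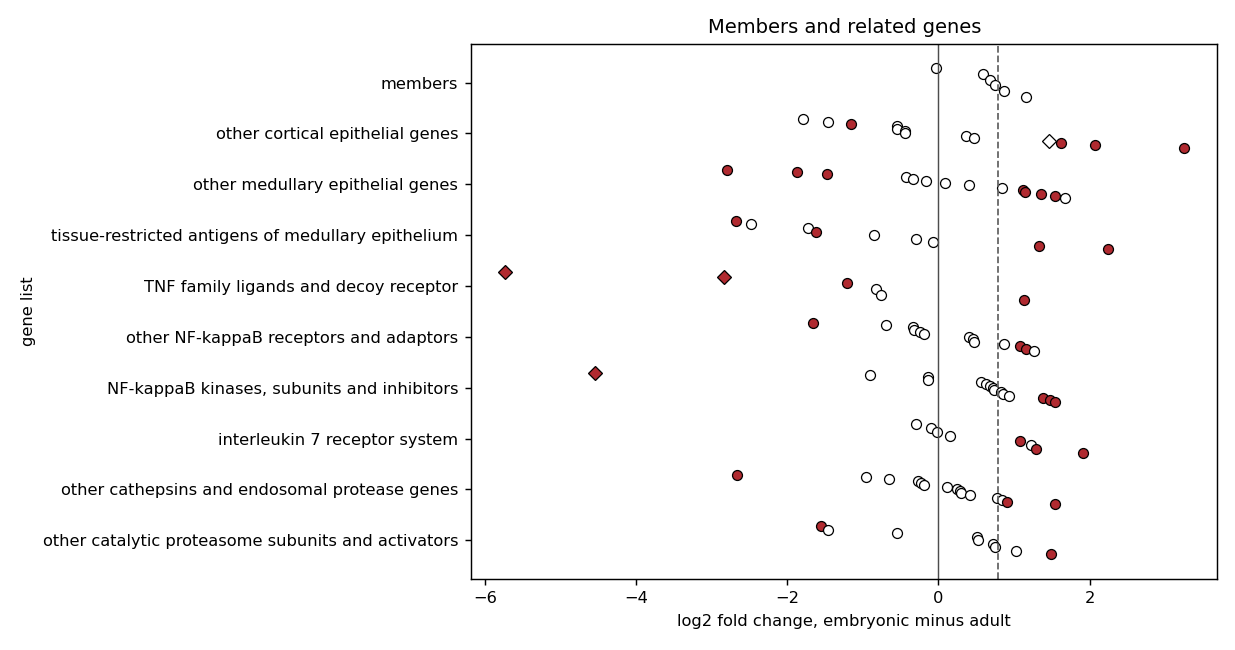
Log2 fold change (x axis, embryonic minus adult) of each tested gene of the member and pathway lists, the cell type marker lists left out. Red points were called by limma, white ones were not, diamonds were detected on neither array of 1 group, and the dashed line is the median of all tested genes, 0.79. None of the 6 members is red. The 3 red diamonds are Lta, Rel and Tnfsf11, whose positions rest on embryonic signals that were not detected.

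Markers of the cells that could carry these transcripts also differed between the groups. Of 10 thymic epithelial markers, 10 and 8 were detected in adult spheres and 10 on each embryonic array. Their summed signals, relative to the 75th percentile, were 206 and 123 against 400.4 and 570.2. The epithelial sums were mostly Krt18 (log2 signal 7.24 and 6.43 against 7.94 and 8.23), so they give no level for the list. Of the 10 epithelial markers 6 rose and 1 fell, while the epithelial surface marker gene Epcam was not called (0.94, SE 0.49, limma adjusted p = 0.15). Over all tested genes 36.1% were called higher and 17.5% lower. The rise of Foxn1 was lost after centring on the tested genes (limma adjusted p = 0.0599), and the other epithelial rises were not read in that setting. Of 12 macrophage and dendritic cell markers, 11 and 8 were detected in adult and 8 and 7 in embryonic spheres, with sums of 147 and 222 against 350.1 and 359. These sums were mostly Siglech (log2 signal 6.16 and 6.86 against 7.93 and 7.99) and Itgam (6.00 and 6.53 against 6.22 and 6.35), so they give no level for the list. Of 8 tested, 4 rose and 1 fell, the latter being Fcgr1, which was detected in adult spheres alone. Ptprc, the gene of the leukocyte surface protein CD45, was detected on adult array 1 alone.

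Of 10 thymocyte markers, 9 and 7 were detected in adult spheres and 3 on each embryonic array, 4 of 7 tested were called lower, and the sums were 8.83 and 9.98 against 9.81 and 11.8. The embryonic sums were mostly Cd4 (log2 signal 2.16 and 2.11 in adult and 2.81 and 2.83 in embryonic spheres), which was not called. All 4 called thymocyte markers (Cd3g, Ptcra, Themis and Cd2) were detected on neither embryonic array and passed the filter through the adult arrays alone, so their count is no measure of direction. The T cell receptor component gene Cd3e was detected on all 4 arrays and was not called (0.85, SE 0.43, limma adjusted p = 0.135). Of 8 endothelial markers, 8 and 6 against 3 and 1 were detected, 4 of 6 tested were called lower, and the sums were 17.1 and 19.4 against 16.1 and 26.1. Those sums were mostly Kdr (log2 signal 3.44 and 3.89 against 3.95 and 4.66), which was not called. Of the 4 called lower, Cdh5, Esam and Robo4 were likewise detected in adult spheres alone. Cdh5, the vascular cadherin gene, had an adult signal at least 2.62-fold the embryonic one (limma adjusted p = 0.00885). The Cdh5 log2 fold change of -2.98 shrank to -0.70 with normexp background correction, where the call was lost (limma adjusted p = 0.112), and to -1.02 with the deposited value table. All 10 fibroblast markers were detected on every array, with sums of 518.3 and 493.2 against 800.8 and 461.8, and 3 rose and 2 fell. Among them Pdgfra rose (2.23, SE 0.35, limma adjusted p = 0.00981) and the matrix gene Mfap5 fell (-3.99, SE 0.57, limma adjusted p = 0.00901). Mfap5, Esam, Robo4, Kdr, Siglech, Itgam, Fcgr1, Cd4, Krt18, Fabp9 and the 4 thymocyte markers called lower were named after their values were seen. The part of these cells in the member signals was not tested.

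**Figure D4:**
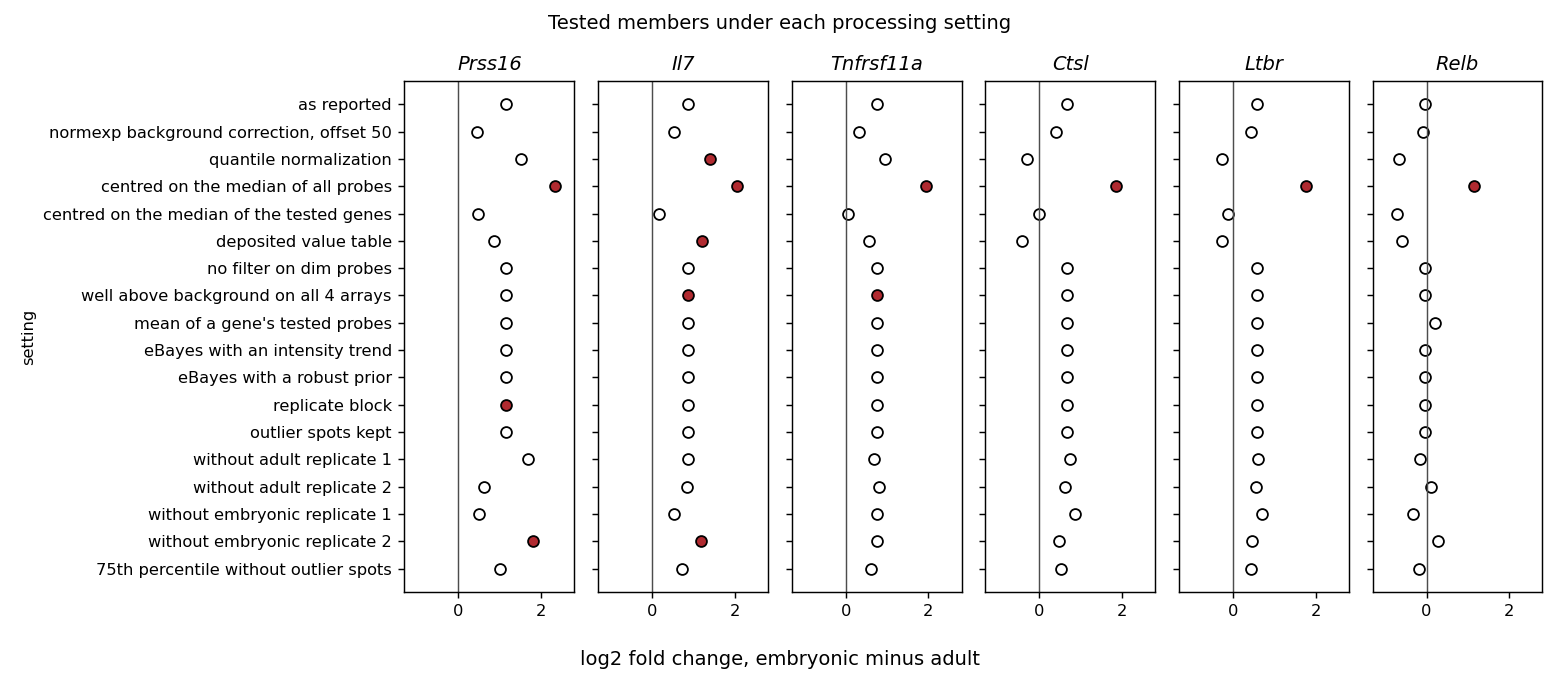
Log2 fold change (x axis, embryonic minus adult) of the 6 tested members under each processing setting (rows), red where limma called it and white where it did not. All 6 are red in the setting that centres each array on the median of all its probes, and the Ctsl, Ltbr and Relb points cross 0.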

How the data were processed

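Per the file headers, spot intensity comes from Agilent Feature Extraction 10.7.3.1, with background and spatial trend already removed on each array. The deposited value table also holds intensity, on a linear scale. Its centring is unknown, its column medians are 34.4, 35.0, 35.7 and 35.1, and it served only as an alternative. Per the labels' protocols, 25 ng of RNA was labelled with Cy3.

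Processed signals were put on the log2 scale relative to each array's 75th percentile (132 and 66.0 for adult, 126 and 61.5 for embryonic arrays). Control spots and outlier spots were left out, and spots of 1 probe were averaged. Symbols came from RefSeq accessions without versions (GRCm38.p6, names only), which matched 28026 probes (50.3%). A probe was tested if well above background on both arrays of a group. A gene took its probe of highest mean signal, probes well above background on all 4 arrays first. The contrast was fitted by limma 3.58.1 (R 4.3.3), with eBayes variances and no covariate, and adjusted by Benjamini-Hochberg over all tested genes, and the script was tested on simulated data. With 2 arrays a group, precision is limited by their number. Array position and group cannot be told apart.

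The members, lists and tests were chosen with earlier results of these data known. Named genes are the members, up to 3 called genes per list and direction, and chosen partners and markers. The normexp alternative used median spot signals.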

Additional observations from a re-analysis of the deposited data

How the results depend on the processing

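The called genes, 7315 as reported, numbered 3346 with normexp background correction, 4856 with quantile normalization, 11527 with centring on the median of all probes, 3738 with centring on the median of the tested genes and 2719 with no filter on dim probes. Higher calls made up 67.4% as reported, 75.5%, 59.6%, 85.3%, 25.1% and 34.2% in those settings, in that order, and 94.3% with detection asked on all 4 arrays. Leaving out 1 array gave 0 to 7543 called genes. The count was 0 without adult array 1 or without adult array 2, with 6435 and 5528 genes at an unadjusted p under 0.05 in limma. Any call named in the report is therefore lost without either adult array.

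The number of members called was 0 as reported. It was 1 with quantile normalization (Il7), 6 with centring on all probes, 1 with the deposited value table (Il7), 1 with no filter (Psmb11), 2 with detection asked on all 4 arrays (Il7 and Tnfrsf11a), 1 with the replicate block (Prss16) and 1 with outlier spots kept (Psmb11). The Psmb11 calls compare adult signal with embryonic spots that were not detected. Leaving out 1 array gave 0 to 2, the 2 being Il7 and Prss16 without embryonic array 2. The replicate block gave 7027 called genes. Deviations of equally numbered arrays correlated at 0.07, and the arrays share only a number. Taking the 75th percentile without outlier spots, chosen after seeing the data, gave 6412 called genes and 0 members.

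Some single values changed sign. Ctsl turned to -0.29 with quantile normalization, -0.013 with centring on the tested genes and -0.42 with the deposited value table, and Ltbr to -0.27, -0.11 and -0.27. Relb turned to 1.16 with centring on all probes, 0.20 with the mean of its probes and 0.44 on its other probe, and ranged from -0.33 to 0.27 with 1 array left out. With centring on all probes Tslp turned to 0.030 and Ltb to 0.42. With the deposited value table Ctss turned to -0.12 and Ltb to 0.071. With the mean of a gene's probes Mbp turned to -0.53 and Map3k14 to -0.15. Ltb ranged from -2.03 to 0.50 with 1 array left out. The cause was not tested. Signal over background limits Aire, Fezf2 and Ly75, for which no embryonic level can be given.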
